A study of Mus musculus with 4 samples.

Results

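The 8 genes Atoh1, Pou4f3, Gfi1, Lhx3, Barhl1, Rfx1, Rfx3 and Eya1 encode transcription factors, or in the case of Eya1 a transcriptional coactivator, that are known for specifying hair cells or keeping them alive. They were chosen by gene symbol and not by their values. All 8 were found among the 23420 genes listed, and all 8 were among the 16077 genes that had at least 100 reads over the 12 replicates and were tested.

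The cells came from cochleae of Atoh1-GFP transgenic mice of the CD1 strain, taken on postnatal day 1 and kept overnight as organ cultures. Cultures were left untreated (control) or were given 0.5 mM gentamicin, an aminoglycoside antibiotic that kills hair cells, for 3 h, and were then dissociated and sorted by flow cytometry. GFP-positive hair cells and GFP-negative non-hair cells were collected from each, which gave 4 groups (hair cell control, hair cell gentamicin, non-hair cell control, non-hair cell gentamicin) of 3 replicates each, and polyadenylated RNA was sequenced. The GFP reporter is driven by an Atoh1 enhancer, cells with weak GFP were kept out by the gate, and the non-hair cells are a mixture of supporting cells, other epithelial cells and surrounding tissue. The study calls the replicates biological, but the labels do not say whether they came from separate cultures or animals, so every p-value here measures the spread between these replicates.

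Atoh1 is the basic helix-loop-helix factor that starts hair cell differentiation, and it is turned down again as hair cells mature. Pou4f3, Gfi1, Barhl1 and Lhx3 come on in the new hair cells, and loss of Pou4f3, Gfi1 or Barhl1 in mice is known to lead to hair cell degeneration. Rfx1 and Rfx3 bind X-box motifs and control genes of cilia in many tissues, and Eya1 acts in the early ear placode and the sensory epithelium.

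Promoter windows were read because some of these factors bind known short motifs: Atoh1 with its partners binds E-boxes such as CAGCTG, and RFX proteins bind X-boxes built from the core GTTGCC. RefSeq (GRCm38.p6) windows of 300 bases, 250 before and 50 after an annotated gene start, were matched by symbol for 6 of the 8 genes, 9 windows in all. CAGCTG lay in both windows of Barhl1 and in no window of Atoh1, Gfi1, Lhx3, Rfx1 or Rfx3, against 16.3% of all 32851 windows. The 250 bases before the Atoh1 start and before the outer Barhl1 start are shown to compare a window without the E-box with one that has it, in capitals, its first base 99 bases before the start. Atoh1 lies at chr6:64728875-64729124 on the plus strand and Barhl1 at chr2:28916669-28916918 on the minus strand.
Atoh1: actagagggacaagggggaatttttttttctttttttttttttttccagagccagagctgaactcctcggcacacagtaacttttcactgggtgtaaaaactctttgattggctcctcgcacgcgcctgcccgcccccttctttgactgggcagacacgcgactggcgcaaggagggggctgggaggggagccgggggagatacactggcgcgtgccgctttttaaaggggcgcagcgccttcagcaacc
Barhl1: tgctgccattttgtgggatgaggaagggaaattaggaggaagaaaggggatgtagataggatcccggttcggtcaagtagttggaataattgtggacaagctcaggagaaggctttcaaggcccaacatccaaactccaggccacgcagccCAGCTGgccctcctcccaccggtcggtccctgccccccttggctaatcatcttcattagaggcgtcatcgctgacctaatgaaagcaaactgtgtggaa
A match is a description of the letters and not a mapped binding site.

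The core GTTGCC, on either strand, lay in 12.5% of all windows and in those of Rfx1 and Rfx3, but in none of the other 7 windows. In both genes it stood just inside the transcribed part, starting at base 2 after the start in Rfx1 and at base 32 in Rfx3, each counted with the start base as 1. Once these sequences had been read, a longer run shared by both genes was searched, AGCAACNGTTGCC, on both strands. It was found in 7 of the 32851 windows (0.0213%), 2 of them those of Rfx1 and Rfx3, which are in the count by construction because the run was read from them. The 30 bases around the core, shown because they are what the 2 RFX genes have in common, lie at chr8:84066825-84066854 on the plus strand and chr19:28011118-28011147 on the minus strand, with the core in capitals.
Rfx1: tgggtagcaacaGTTGCCccggtgagggaa
Rfx3: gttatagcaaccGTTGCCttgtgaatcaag

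On mm10, GENCODE M21 places the single-exon gene Atoh1 at chr6:64729125-64731245 and the 2-exon gene Pou4f3 at chr18:42394539-42397249. Gfi1 lies at chr5:107716657-107726036, and Lhx3 and Barhl1 share chromosome 2, at chr2:26200212-26208289 and chr2:28907679-28916668. Rfx1 lies at chr8:84066834-84096992, Rfx3 at chr19:27761721-28011166 and Eya1 at chr1:14168954-14310235. The scores are reads per gene, so they do not tell isoforms apart.

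The values are normalised read scores, which are reads scaled between replicates plus 1, so that a score of 1 means no read. They are not divided by gene length, so levels of different genes are compared below only per kilobase. The number of reads recovered from the scores ran from 22398633 to 28149165 per replicate. Genes were tested on log2 scores with limma over all 4 groups, and the call rule of the study was used for the gentamicin comparisons, a p below 0.01 before adjustment together with a change of over 1.2 times. For the difference between responses and the difference between populations the rule was a Benjamini-Hochberg adjusted p under 0.05. In bulk RNA, fewer cells of a type and less RNA per cell cannot be told apart.

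Hair cells and non-hair cells without drug were compared first, to see where each factor is expressed. In control hair cells Atoh1 scored 223, 190 and 215, and in control non-hair cells 1.29, 1.36 and 1.5. This is a check of the sort and not a finding, since the reporter used for sorting carries an Atoh1 enhancer, and no test is given. Counted as reads, Atoh1 had 14182 in the 3 hair cell replicates and 29 in the 3 non-hair cell replicates, a ratio of 531 after division by total reads, with a counting interval of 370 to 794 (95%, exact).

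The 4 factors that follow Atoh1 in new hair cells were also close to the floor in non-hair cells. Pou4f3, a POU-domain factor needed for hair cell survival, scored 452, 417 and 405 in control hair cells and 1.25, 1.04 and 1.04 in control non-hair cells. Its 28863 reads against 8 gave a ratio of 3919 (interval 1989 to 9079). Gfi1, a zinc-finger repressor, scored 280, 262 and 257 against 1.12, 1.2 and 1.04, a ratio of 2182 (1149 to 4774). No replicate of one population came near any replicate of the other for these genes.

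Lhx3, a LIM-homeodomain factor, scored 265, 253 and 231 in control hair cells and 1.04, 1.12 and 1.23 in control non-hair cells. Its reads gave a ratio of 1841 (1001 to 3840). Barhl1, a homeodomain factor, scored 517, 542 and 515 against 1.17, 1.36 and 1.23, a ratio of 2041 (1307 to 3391). The intervals cover counting error only. In limma the log2 differences of Pou4f3, Gfi1, Lhx3 and Barhl1 lay between 7.79 and 8.72, with adjusted p of at most 4.893e-12, but their size depends on the offset of 1.

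The other 3 factors were present in both populations, and all 3 were higher in hair cells. Rfx1 scored 71.6, 69.3 and 67.3 in control hair cells and 50.8, 44.5 and 41.7 in control non-hair cells, 1.52-fold higher (log2 0.61, SE 0.11, limma adjusted p 3.881e-04). Rfx3 scored 105, 94.1 and 114 against 36.0, 38.5 and 42.2, 2.68-fold higher (log2 1.42, SE 0.08, limma adjusted p 3.679e-08). Eya1 scored 304, 289 and 316 against 153, 163 and 198, 1.78-fold higher (log2 0.83, SE 0.09, limma adjusted p 7.993e-06). For none of these 3 genes did the populations overlap.

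The 7 factors other than Atoh1 were thus all higher in control hair cells at an adjusted p under 0.05. Among all tested genes 74.1% differed by the same rule and 31.9% were higher in hair cells. Pou4f3, Gfi1, Lhx3 and Barhl1, however, had very few reads in non-hair cells and met the minimum of reads for testing only through hair cells. The 7 are therefore not a like comparison with these shares, and no excess over the background is read from them. Only Rfx1, Rfx3 and Eya1 were well above the floor in both populations. The 8 hair cell marker genes fixed as a check of the label were all higher in hair cells too, with summed scores of 12870 to 13240 in control hair cells against 396 to 519 in control non-hair cells. The 6 mesenchyme markers were all lower in hair cells, with summed scores of 187 to 470 against 4997 to 6708. All tested endothelium, glia and blood markers were lower too. Of 8 supporting cell markers, however, 2 were higher in hair cells, 1 was lower and 5 did not pass. Their summed scores were 1697 to 2047 in control hair cells against 1114 to 1693. Of 5 neuron markers 1 was lower and 4 did not pass, with summed scores of 1004 to 1175 against 427 to 1175.

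**Figure D1:**
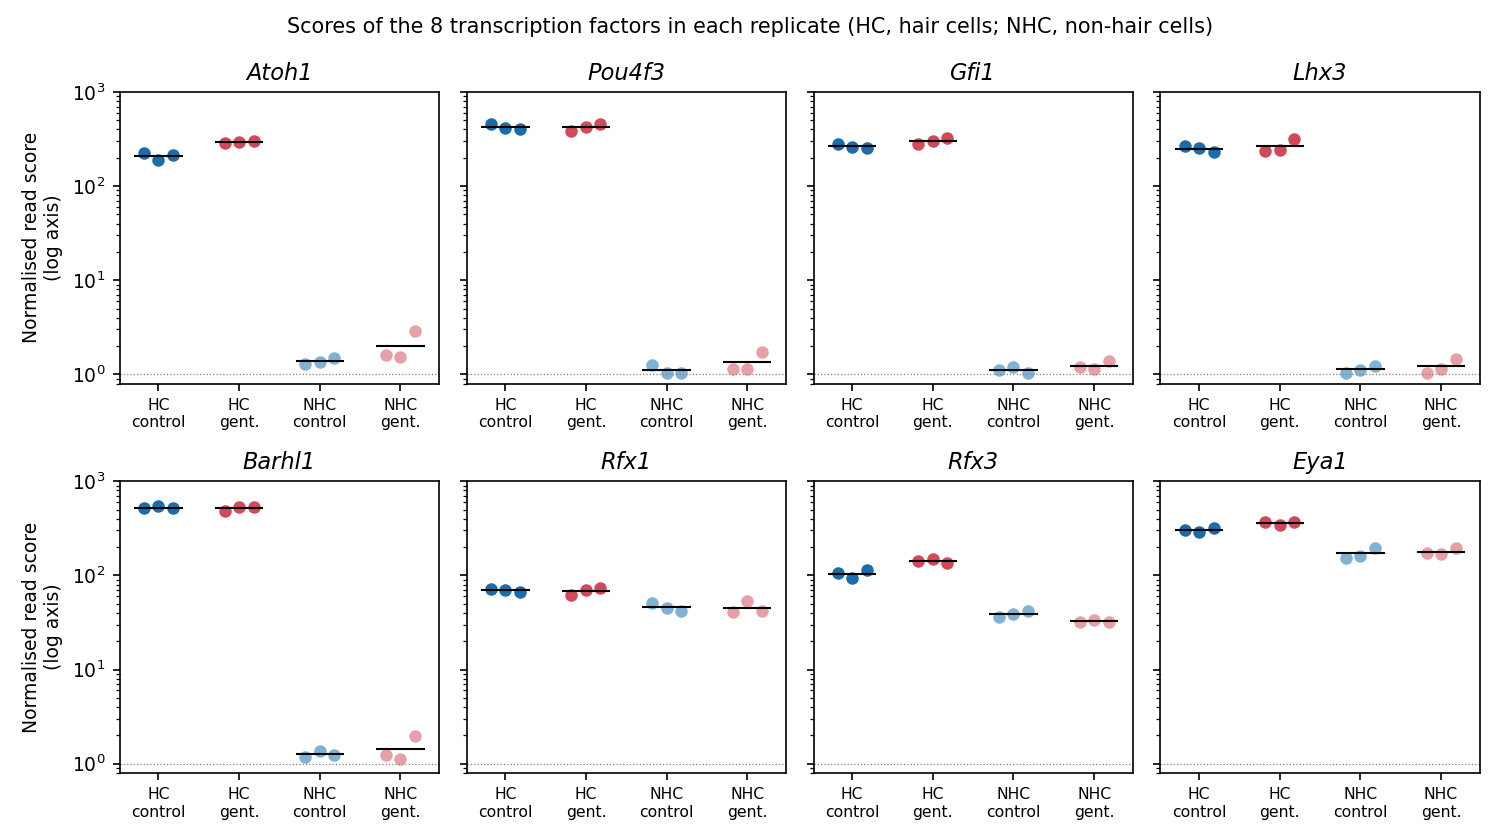
Normalised read score (log axis, dotted line at a score of 1, which means no read) of each of the 8 factors in the 12 replicates. Points are replicates and bars are group means of 3. Atoh1, Pou4f3, Gfi1, Lhx3 and Barhl1 lie above 190 in every hair cell replicate and below 3 in every non-hair cell replicate, while Rfx1, Rfx3 and Eya1 are present in both populations.

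Levels of different factors were compared per length. As RPKM, computed here from recovered reads, all annotated exons and total reads, Pou4f3 was highest in control hair cells at 171 ± 9.7 (SD, n = 3), and Barhl1 followed at 132 ± 4.1. Lhx3 at 99.8 ± 6.91, Atoh1 at 95.3 ± 7.58 and Gfi1 at 82.9 ± 3.79 came next. The ranges of Lhx3 and Atoh1 overlapped, and so did those of Atoh1 and Gfi1. Both genes of a pair were measured in the same replicates, and their order per length within a replicate was not compared. Overlapping ranges therefore do not settle whether these neighbours differed. The order also rests on the length used, which these ranges do not cover. Annotated Barhl1 transcripts, for example, run from 2102 to 3666 bases.

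Eya1 stood at 65.4 ± 2.91 RPKM in control hair cells. Far lower were the 2 RFX genes, Rfx1 at 15.8 ± 0.494 and Rfx3 at 10.7 ± 1.01, whose ranges did not overlap. Their order is not settled by these ranges, since annotated Rfx3 transcripts run from 2621 to 9146 bases and those of Rfx1 from 3677 to 4172. In gentamicin-treated hair cells Atoh1, at 144 ± 3.76, ranked above Barhl1 at 139 ± 6.19, with overlapping ranges. With the longest transcript as the length, Barhl1 stood at 146 and Atoh1 at 144.3. Rfx3, at 15.8 ± 0.766 over all annotated exons, then overlapped with Rfx1 at 16.6 ± 1.31, so the order of those 2 genes was not resolved.

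The second question was how hair cells changed after gentamicin. Rfx3 rose 1.37-fold and was the only one of the 8 factors to meet the call rule. Atoh1 had the largest fold change, 1.42-fold, without meeting it, and Gfi1 and Eya1 moved in the same direction by less. Pou4f3, Barhl1 and Rfx1 had fold changes of 0.99, 0.984 and 0.982, and Lhx3 one of 1.06 within the spread of its replicates. Among all tested genes 27.5% met the rule and 12.7% met it with a rise, so that 1 of 8 lies near the background. With an adjusted p under 0.05 in place of the rule, 33.2% of all genes passed, and again Rfx3 was the only one of the 8.

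Rfx3 scored 105, 94.1 and 114 in control hair cells and 142, 151 and 135 in treated ones. Every treated replicate lay above every control replicate. The log2 fold change was 0.45 (SE 0.08, 95% interval 0.27 to 0.64), with an unadjusted p of 1.994e-04 and a limma adjusted p of 0.00224. The call held when any one of the 6 hair cell replicates was left out, with log2 values of 0.38 to 0.52.

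Its relative Rfx1, which recognises a like motif, scored 71.6, 69.3 and 67.3 in control hair cells and 62.0, 70.1 and 72.9 in treated ones. The groups overlapped, and the log2 fold change was -0.03 (95% interval -0.27 to 0.22, limma adjusted p 0.884). The reads of Rfx3 over those of Rfx1 within each replicate, a ratio free of the scaling between replicates, were 1.47, 1.36 and 1.70 in control and 2.32, 2.16 and 1.86 in treated hair cells. That is a 1.40-fold higher ratio with no overlap (log2 difference 0.49, SE 0.13). A two-sided exact permutation test gave p = 0.10, the smallest that 3 against 3 allows.

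Atoh1 scored 223, 190 and 215 in control hair cells and 288, 296 and 304 in treated ones, again with every treated replicate above every control replicate. The log2 fold change was 0.50 (SE 0.20, 95% interval 0.07 to 0.93), with an unadjusted p of 0.0265 and a limma adjusted p of 0.0703. The spread behind this test is shared with the non-hair cells, where Atoh1 rests on few reads. When limma was run on the 2 hair cell groups alone, the same difference of 0.50 had an unadjusted p of 1.389e-04 and met the rule. The sort used a gate on GFP driven by an Atoh1 enhancer, so a shift in which cells pass the gate and a change of Atoh1 in the same cells cannot be told apart.

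Eya1 scored 304, 289 and 316 in control hair cells and 367, 347 and 366 in treated ones, with no overlap. Its log2 fold change of 0.25 (SE 0.09, 95% interval 0.04 to 0.46) had an unadjusted p of 0.0226 and a limma adjusted p of 0.0625. Scaled by total reads it was 0.35, with an unadjusted p of 0.00472, and met the rule. Gfi1 scored 280, 262 and 257 in control hair cells and 283, 302 and 322 in treated ones. The lowest treated replicate lay just above the highest control replicate, and the log2 fold change of 0.18 (SE 0.10) had a limma adjusted p of 0.201.

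Pou4f3, Barhl1 and Lhx3 overlapped between control and treated hair cells. Pou4f3 scored 452, 417 and 405 in control and 381, 427 and 454 in treated hair cells, a log2 fold change of -0.01 (95% interval -0.36 to 0.33, limma adjusted p 0.954). Barhl1 scored 517, 542 and 515 in control and 487, 531 and 534 in treated hair cells, a log2 fold change of -0.02 (-0.39 to 0.35, limma adjusted p 0.935). Lhx3 scored 265, 253 and 231 in control and 239, 244 and 316 in treated hair cells, a log2 fold change of 0.08 (-0.24 to 0.41, limma adjusted p 0.702). Treated replicate 3 of Lhx3 stood above the other 5 hair cell replicates. The intervals of all 3 genes leave room, in either direction, for changes larger than the 0.18 of Gfi1. These intervals rest on a spread shared with the non-hair cells, where the 3 genes had few reads.

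In all, 4 of the 8 factors (Atoh1, Rfx3, Eya1 and Gfi1) had all 3 treated hair cell replicates above all 3 control replicates, and none had all 3 below. Among all tested genes 21.7% were wholly above and 33.1% wholly below. The median log2 fold change of the 8 factors was 0.13 in hair cells, beside -0.09 over all tested genes. Scaling by total reads moved the median of all genes by less than 0.1, to -0.013.

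**Figure D2:**
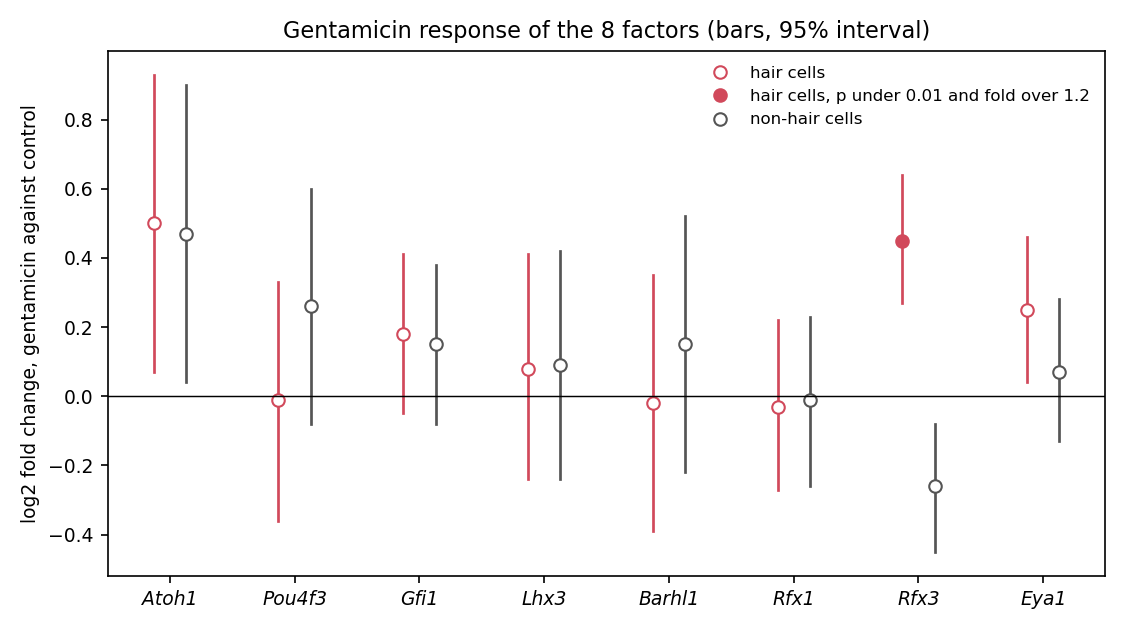
The log2 fold change of each factor after gentamicin in hair cells (red) and non-hair cells (grey), with the 95% interval of the limma fit. The one filled point, Rfx3 in hair cells at 0.45, is the only value that met p under 0.01 with a fold change over 1.2, and Rfx3 is below 0 in non-hair cells at -0.26.

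Ratios between the factors were taken in each hair cell replicate for all 28 pairs, after their scores had been seen. The groups did not overlap in 16 of the 28 pairs, and the exact permutation p of 0.10 in each of these is the smallest possible, or 0.18 when adjusted over the 28. No such share was taken over pairs of other genes. Of all tested genes taken singly, 21.7% lay wholly above control and 33.1% wholly below. The pairs also share genes, so the count is not a result of its own about the factors. Atoh1 over Pou4f3 was 0.492, 0.456 and 0.530 in control and 0.755, 0.693 and 0.668 in treated hair cells, 1.43-fold higher. Atoh1 over Rfx3 was 2.14, 2.03 and 1.90 in control and 2.03, 1.97 and 2.27 in treated hair cells. The ranges of this second ratio overlapped, so a difference between the changes of Atoh1 and Rfx3 was not resolved.

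Pou4f3 over Barhl1 was 0.873, 0.767 and 0.786 in control and 0.782, 0.804 and 0.851 in treated hair cells, with overlapping ranges. Pou4f3 over Rfx1 was 6.38, 6.08 and 6.10 in control and 6.23, 6.16 and 6.31 in treated hair cells. That log2 ratio differed by 0.01 (SE 0.02) between the groups, one of the smallest SEs of the 28 pairs and named after it was seen. Gfi1 over Pou4f3 was 0.620, 0.628 and 0.633 in control and 0.742, 0.707 and 0.708 in treated hair cells, 1.15-fold higher with no overlap.

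**Figure D3:**
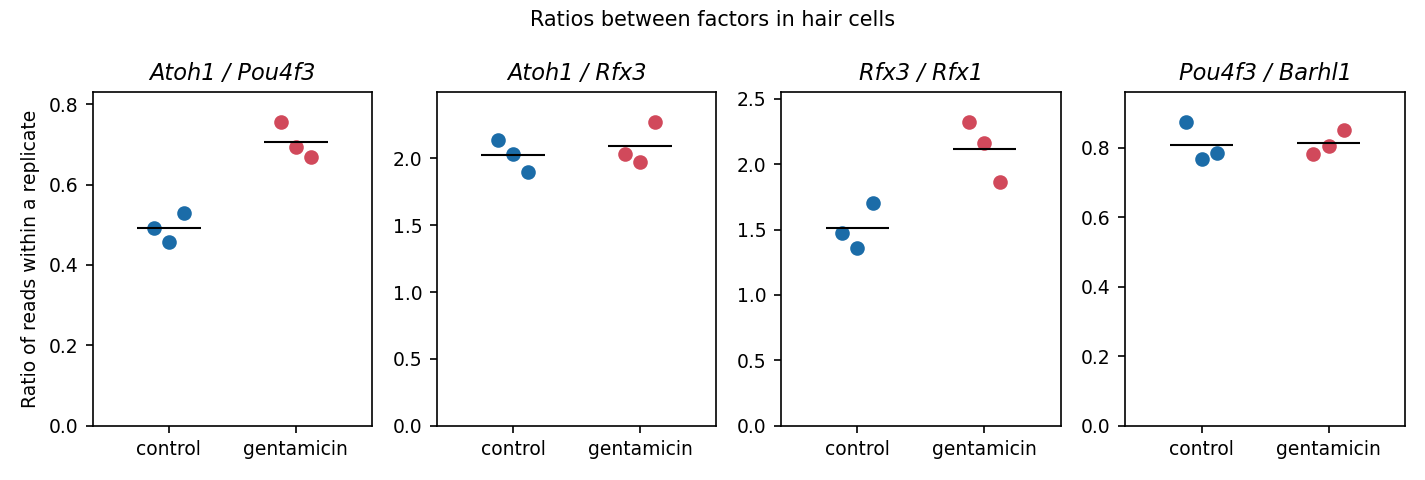
Ratio of the reads of 2 factors within each hair cell replicate (axes start at 0), for 4 of the 28 pairs. Points are replicates and bars are means of 3. Atoh1 over Pou4f3 and Rfx3 over Rfx1 are higher in all 3 treated replicates, while Atoh1 over Rfx3 and Pou4f3 over Barhl1 overlap between the groups.

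Several markers of other cell types had lower scores in treated hair cells, and these values stand beside the rise of Rfx3 and the higher scores of Atoh1. Of 8 supporting cell markers 3 fell (Hes5, Lfng and Gjb2) and 5 did not pass, with a summed score of 1697 to 2047 in control and 799 to 1476 in treated hair cells. Of 6 mesenchyme markers 3 fell, with a summed score of 187 to 470 in control, where replicate 2 was highest, and 97.2 to 155 in treated hair cells. The 4 endothelium markers (1 fell) summed to 11.8 to 20.1 and 6.23 to 10.9, and the 4 glia markers (1 fell) to 193 to 230 and 96.6 to 165. Of 3 tested melanocyte markers Tyr fell, with sums of 9.3 to 12.3 and 6.51 to 7.7, and no neuron or blood marker passed. Of 6 immediate early genes Fos, Fosb and Egr1 fell and Jun rose.

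None of the 8 hair cell markers passed the rule, and their sum ran from 12870 to 13240 in control and from 10700 to 11940 in treated hair cells. The spread behind these tests is shared with the non-hair cells, where these markers were lower. Three-against-three ranges did not overlap for Otof (3823 to 4030 in control, 2574 to 3171 in treated hair cells), Cdh23 (776 to 866, 567 to 590) and Myo7a (1581 to 1726, 1315 to 1452). Espn was wholly higher (440 to 510, 531 to 619), and the remaining hair cell markers overlapped. Ranges without overlap were common, since 33.1% of all tested genes were wholly lower and 21.7% wholly higher in treated hair cells. No marker of the hair cell, supporting cell, mesenchyme, endothelium or glia lists was without reads. Without hair cell control replicate 2, Rfx3 had a log2 fold change of 0.38 and still met the rule, and Atoh1 had 0.43. The part of these marker changes in the result was not tested.

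Non-hair cells were compared in the same way. None of the 8 factors met the rule there, where 5.44% of all tested genes did and 3.18% did with a rise. Atoh1, Pou4f3, Gfi1, Lhx3 and Barhl1 had very few reads there and met the minimum of reads only through hair cells. The offset of 1 makes their fold changes smaller, so the 8 are not a like comparison with these shares. Rfx3 came nearest, in the direction opposite to hair cells. It scored 36.0, 38.5 and 42.2 in control and 32.0, 33.6 and 31.7 in treated non-hair cells. Every treated replicate lay below every control replicate, as in 7.68% of all tested genes. The log2 fold change was -0.26 (SE 0.08, 95% interval -0.45 to -0.08), with an unadjusted p of 0.00977 and a limma adjusted p of 0.164. Its fold change of 0.834 stopped just short of the limit of 1.2 times in the rule, and with an offset of 0.1 in place of 1 it met the rule.

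Markers moved in these samples too. Among the lists above, Cldn5 of endothelium rose (log2 1.12), and Dct of melanocytes (-0.66) and the immediate early gene Junb (-0.78) fell, while the 5 neuron markers, none of which passed, had a median of -0.88. Summed scores in control and treated non-hair cells were 427 to 1175 and 199.6 to 810 for neuron, 4997 to 6708 and 5800 to 9247 for mesenchyme, and 1114 to 1693 and 910 to 1442 for supporting cell markers. Their part in the Rfx3 values was not tested.

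Rfx1 scored 50.8, 44.5 and 41.7 in control and 40.8, 53.5 and 41.9 in treated non-hair cells, with overlap. Its log2 fold change was -0.01 (95% interval -0.26 to 0.23, limma adjusted p 0.963). Eya1 scored 153, 163 and 198 in control and 174, 169 and 194 in treated non-hair cells, with a log2 fold change of 0.07 (-0.13 to 0.28, limma adjusted p 0.732). The spread of Eya1 between control replicates was wider than the difference of the means.

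The other 5 factors rest on very few reads in non-hair cells. Atoh1 had 7, 9 and 13 reads in the control and 16, 14 and 53 in the treated replicates. Its log2 fold change of 0.47 had a limma adjusted p of 0.254, and without treated replicate 3 it was 0.18. Pou4f3 had 6, 1 and 1 against 4, 4 and 21 reads, Gfi1 3, 5 and 1 against 5, 4 and 11, Lhx3 1, 3 and 6 against 1, 4 and 13, and Barhl1 4, 9 and 6 against 6, 3 and 27. For all 5 genes treated replicate 3 had the most reads of the 6, and the limma adjusted p of the last 4 lay between 0.421 and 0.795.

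Set against the hair cell mean with the same treatment, that replicate held 0.615% of the Atoh1 level (counting interval 0.461 to 0.805) and 0.125 to 0.179% of the levels of the other 4 factors. In the other 5 non-hair cell replicates Atoh1 stood at 0.140 to 0.247% of its hair cell level. The reads of Pou4f3, Gfi1, Lhx3 and Barhl1 together stood at 0.0356 to 0.0497% in those 5 replicates. In each of the 6 replicates the Atoh1 share was higher than that of the other 4 factors together, by 3.51 to 6.51 times, and the counting interval of that ratio stayed above 1 in every replicate. These shares were compared after they had been seen, and no test beyond counting error is given.

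**Figure D4:**
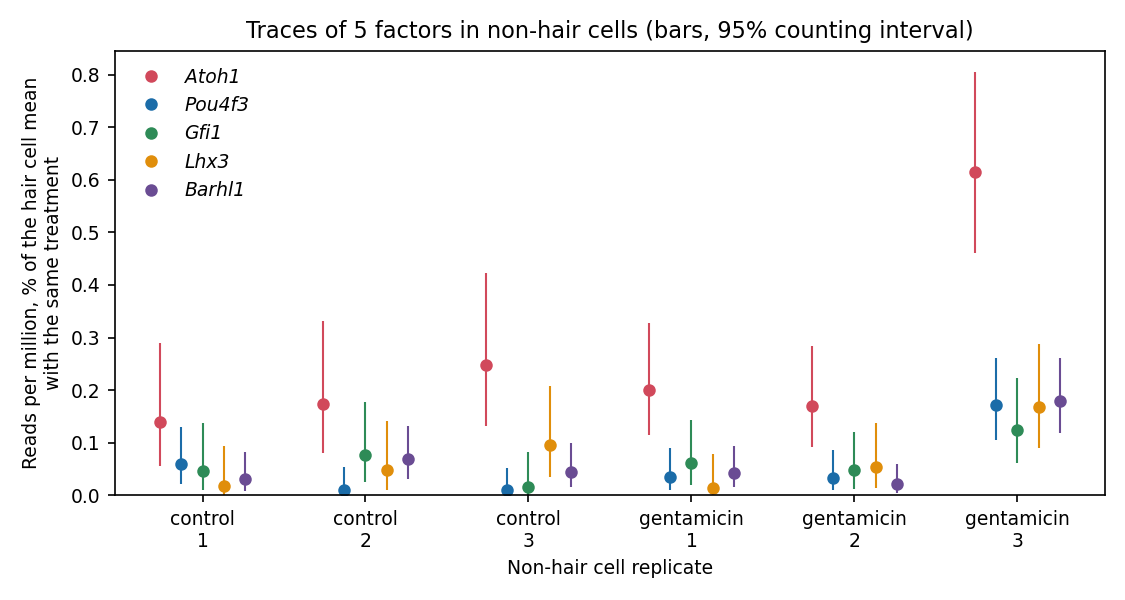
Reads of 5 factors, divided by total reads, in each non-hair cell replicate as a percent of the mean in the 3 hair cell replicates with the same treatment, with 95% counting intervals. Atoh1 is the highest of the 5 in every replicate, and all 5 are highest in gentamicin replicate 3, where Atoh1 reaches 0.615%.

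The gentamicin responses of the 2 populations were then compared by the interaction term of the same fit. Rfx3 alone of the 8 factors differed, by 0.72 on the log2 scale (SE 0.12, 95% interval 0.46 to 0.98, limma adjusted p 0.00501). Of all tested genes 13.4% differed. The Rfx3 difference combined a rise in hair cells with the lower scores in treated non-hair cells, and it stayed between 0.65 and 0.78 and under the threshold whichever of the 12 replicates was left out. For the other 7 factors the adjusted p was at least 0.401. Among them, Atoh1, Pou4f3, Gfi1, Lhx3 and Barhl1 had few reads in non-hair cells and met the minimum of reads only through hair cells. The test says little about these genes, since their differences depend on the offset. That of Atoh1 was 0.03 with an offset of 1 and -0.50 with an offset of 0.1. Only Rfx1, Rfx3 and Eya1 were well above the floor in both populations. Reads of Rfx3 over those of Rfx1 in non-hair cells were 0.703, 0.861 and 1.01 in control and 0.778, 0.620 and 0.749 in treated replicates, all below the 1.36 of the lowest hair cell replicate.

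Of genes related to the 8 factors by family or partnership, 82 were listed and 65 were tested. In hair cells 6 rose, 4 fell and 55 did not pass after gentamicin, 10 of 65 beside the 27.5% of all genes, with a median log2 fold change of -0.00. In non-hair cells 1 of 65 passed, the corepressor deacetylase Hdac1, with a log2 fold change of 0.31. The responses of 8 of the 65 differed between the populations, beside 13.4% of all genes.

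Around the RFX genes, 5 of 8 listed relatives were tested and Rfxap rose, with a list median of 0.12 on the log2 scale. Rfxap encodes a subunit that joins Rfx5 and Rfxank on promoters of major histocompatibility genes. It scored 28.1 to 30.3 in control and 37.7 to 42.6 in treated hair cells (log2 0.49, SE 0.09, limma adjusted p 0.00232). Its response differed from that in non-hair cells by 0.72, as much as that of Rfx3. Rfx2, Rfx5, Rfx7 and Rfxank had log2 fold changes of 0.05 to 0.14 that did not pass.

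Around Atoh1, 2 of the 10 tested partners and inhibitors passed in hair cells, both of them E proteins that pair with Atoh1 on E-boxes, and the list median was 0.03. Tcf12 rose by a log2 value of 0.43 (limma adjusted p 0.0318), from 62.5 to 63.6 in control to 83.1 to 85.9 in treated replicates. Tcf3 went the other way with -0.31 (limma adjusted p 0.0228), from 117 to 126 down to 88.3 to 108. Neither group pair overlapped. The inhibitors Id1, Id2, Id3 and Id4 did not pass.

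Around Lhx3, 3 of the 11 tested LIM genes passed in hair cells, with a list median of -0.05. Lmo3 rose 2.07-fold, from 42.6 to 50.03 in control to 88.0 to 105 (log2 1.05, SE 0.27, limma adjusted p 0.0124). Lmo4 rose 1.5-fold, from 165 to 180 in control to 251 to 264 (log2 0.58, SE 0.06, limma adjusted p 5.607e-05). Both are LIM-only proteins that bind the Ldb cofactors which LIM-homeodomain factors also use. Ldb2, at scores under 8 in hair cells, fell by 0.57 on the log2 scale (limma adjusted p 0.0157).

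Around Gfi1, 1 of 8 tested relatives and corepressors passed in hair cells, with a list median of 0.02. Rcor3, of the CoREST family that works with Gfi1 and the demethylase Kdm1a, scored 16.5 to 17.4 in control and 32.1 to 35.4 in treated hair cells. The 1.97-fold rise (log2 0.98, SE 0.10, limma adjusted p 7.093e-05) exceeded its value in non-hair cells by 0.90. Insm1, a zinc-finger factor of outer hair cells, had a log2 fold change of -0.06 that did not pass.

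Around Eya1, 2 of the 10 tested genes related to or acting with Eya1 fell in hair cells and none rose, with a list median of -0.00. They were Eya3, with a log2 value of -0.29, and Six5, with -0.40. Eya4, a paralog of Eya1, had a log2 value of 0.37 with an unadjusted p of 0.0134 in hair cells.

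None of the 9 tested POU genes other than Pou4f3 passed in hair cells, where their median was -0.23. Barx2, the 1 tested relative of Barhl1, had a log2 value of 0.03 that did not pass. Of 3 genes named elsewhere as Pou4f3 targets, Bdnf, Caprin1 and Ntf3, none passed either, with a median of 0.20. Bdnf, a neurotrophin, scored 130 to 142 in control and 170 to 199 in treated hair cells (log2 0.42, SE 0.23, limma adjusted p 0.180). This SE rests on a spread shared with the non-hair cells, where Bdnf scored only 1.52 to 3.39. Of 8 other inner ear regulators, with a median of -0.31, 1 passed. Nhlh1, a basic helix-loop-helix factor, rose 1.5-fold, from 163 to 180 to 248 to 272 (log2 0.59, limma adjusted p 6.318e-04).

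**Figure D5:**
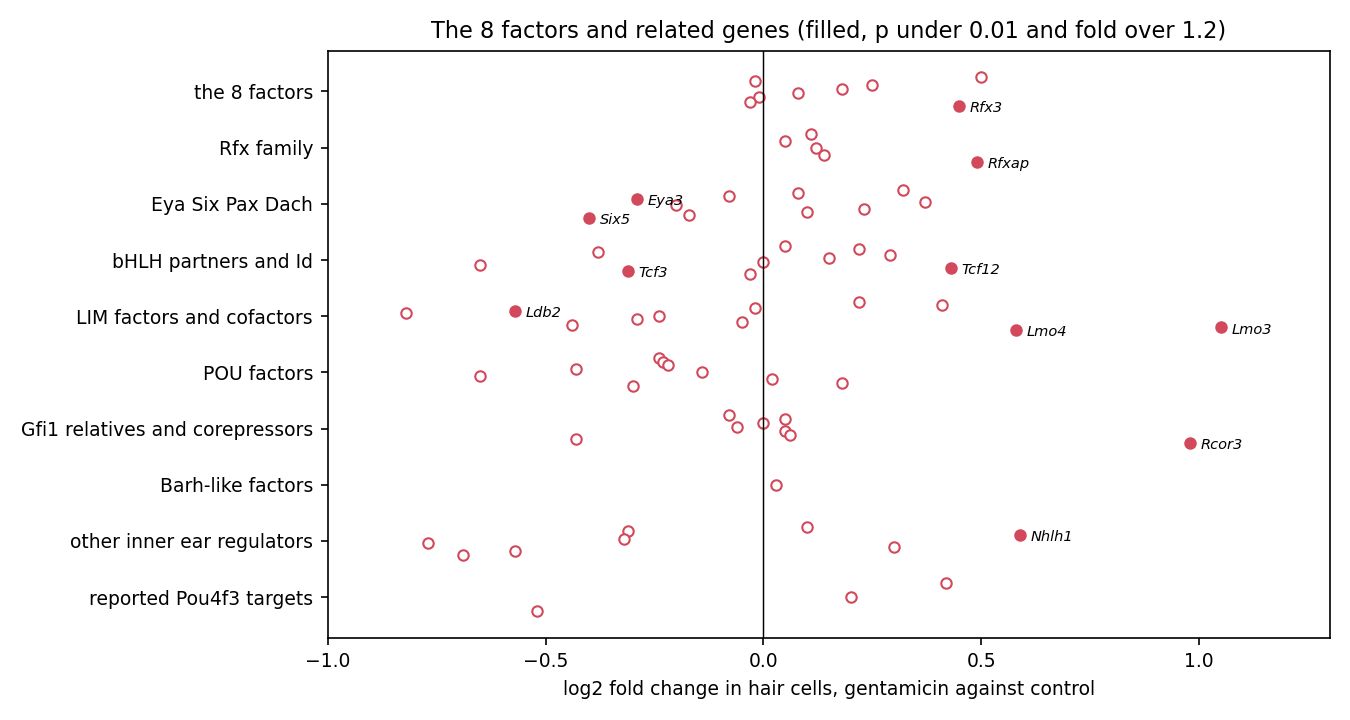
The log2 fold change in hair cells of the 8 factors and of each tested related gene, by list. Filled points met p under 0.01 with a fold change over 1.2, and they lie on both sides of 0, with Lmo3 at 1.05 and Rcor3 at 0.98 farthest to the right.

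Without drug, 22 of the 65 related genes were higher in hair cells, 21 were lower and 22 did not pass, beside 31.9% higher among all tested genes. Nhlh1, with a log2 difference of 6.68, Bdnf with 5.59 and Insm1 with 5.21 were nearest to the 5 hair cell factors in this respect. No tested POU gene but Pou4f3 was higher in hair cells and 6 of 9 were lower, Pou3f4 with a log2 difference of -4.41. Id1, Id2 and Id3 were lower in hair cells and Id4 was higher, by a log2 difference of 1.46. Both RFX relatives that were higher, Rfx5 and Rfx7, differed by less than Rfx3 did, at 0.63 and 0.78.

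The genes whose scores followed each factor most closely over the 12 replicates are given as a description, since all points share the step between the 2 populations. Chrna10, a subunit of the efferent acetylcholine receptor of hair cells, came first for both Pou4f3 (Pearson r 0.9999) and Barhl1 (0.9998), with Ankfn1 next for Pou4f3 and Espnl for Barhl1. Gpr155, Xirp2 and Zdhhc13 came first for Atoh1, with r from 0.9989 to 0.9991. Rfx3 was followed by Sacm1l, Satb1 and Stk30, with r from 0.9954 to 0.9963, and Rfx1 less closely by Wdr81, 4922501C03Rik and Fam104a, with r from 0.9764 to 0.9884. Gfi1 was followed by Ankfn1, Defb25 and Ccdc146, and Lhx3 by Skor1, 4932411E22Rik and Ankfn1, with r of at least 0.9995. Eya1 was followed by Exoc6, 9930013L23Rik and Tecpr2, with r from 0.9902 to 0.9969. Pou4f3 and Barhl1 were each among the 3 nearest genes of the other.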

How the data were processed

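RNA of sorted hair cells and non-hair cells, with and without gentamicin, was measured in 4 groups of 3 replicates. Per the labels and the study's methods, the authors quality-trimmed single-end reads of 50 bp, mapped them to mm10 using TopHat 2 and deposited a normalised read score per gene, in 1 table per group whose 3 replicate columns carry no names and are numbered here by position only. Use of strand in counting is not given in the sources used here. The study describes values per kilobase, but the deposited score was found to be reads times a factor per replicate plus 1: 82.9 to 83.9% of values up to 20.5 reads came out whole within 0.1 read.

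Because scores are not counts, log2 scores of the 16077 genes with at least 100 recovered reads were fitted in limma 3.58.1 (R 4.3.3) with a mean-variance trend, all 4 groups sharing 1 estimate of the spread, and p-values were adjusted by the Benjamini-Hochberg method. The fit was tested on simulated data. Counting intervals are exact, at 95%, and cover counting error only. Levels per kilobase used GENCODE M21 exons on mm10. Alternatives changed the scaling, the offset, the minimum of reads, the call rule, the groups in the fit and a replicate block, and left out each replicate in turn. The named genes are all 8 factors, at most 4 passing genes of each of 9 related lists, and the 3 genes with the highest correlation to each factor. Others were named after their values were seen. The factors, lists and markers were chosen with earlier results of these data known, and no list has a test of its own. Of the related genes, 1 is counted but not reported here by name.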

Additional observations from a re-analysis of the deposited data

Results flagged for a closer look

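Rfx3 was the one result among the 8 factors whose gentamicin response differed between the populations by a test of the difference itself, 0.72 on the log2 scale (SE 0.12, limma adjusted p 0.00501). Among all tested genes 13.4% passed the same test. For Atoh1, Pou4f3, Gfi1, Lhx3 and Barhl1 it says little, since they had few reads in non-hair cells. The 8 are therefore not a like comparison with that share, and no excess over the background is read from Rfx3. All 3 treated hair cell replicates of Rfx3 lay above the controls and all 3 treated non-hair cell replicates lay below theirs. The log2 fold changes were 0.45 and -0.26. Of all tested genes 21.7% were wholly above in hair cells and 7.68% wholly below in non-hair cells.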

How the results depend on the processing

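The rise of Rfx3 in hair cells, its difference between the populations and the higher level of the 7 factors other than Atoh1 in control hair cells kept their direction and their side of the threshold under every alternative run and without any single replicate. The number of factors that passed after gentamicin in hair cells was 2 in place of 1 with scaling by total reads (Eya1 was added) and 2 with the 2 groups alone (Atoh1 was added). In non-hair cells it was 1 in place of 0 with an offset of 0.1, and 0 to 1 when a replicate was left out: Rfx3 passed without control replicate 1 and Atoh1, at 0.64, without gentamicin replicate 2. All genes called in non-hair cells were 875, or 55 with an adjusted p under 0.05, 383 with the 2 groups alone, and 411 (without control replicate 2) to 1570 (without gentamicin replicate 3) with a replicate left out, also 458 without gentamicin replicate 2 and 1366 without control replicate 1. Genes whose responses differed were 2158, and 1163 to 2378 with a replicate left out. Counts fell by over 1.5 times without hair cell control replicates 1 and 2, hair cell gentamicin replicate 2, non-hair cell control replicate 2 or non-hair cell gentamicin replicate 1.

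Signs turned only for values near 0 or at few reads. Scaling by total reads gave Pou4f3 0.083, Barhl1 0.075 and Rfx1 0.070 in hair cells, Rfx1 0.0090 in non-hair cells, and differences of 0.086 for Lhx3 and 0.061 for Rfx1, and median ratio scaling gave 0.0068 for Lhx3. An offset of 0.1 gave differences of -0.50 for Atoh1 and -0.46 for Gfi1. With a replicate left out, hair cell values ran from -0.072 to 0.055 for Pou4f3, -0.046 to 0.16 for Lhx3, -0.046 to 0.020 for Barhl1 and -0.074 to 0.043 for Rfx1. Non-hair cell values ran from -0.047 to 0.20 for Lhx3, -0.094 to 0.31 for Barhl1, -0.14 to 0.065 for Rfx1 and -0.0033 to 0.18 for Eya1. Differences ran from -0.14 to 0.32 for Atoh1, -0.020 to 0.12 for Gfi1, -0.14 to 0.13 for Lhx3, -0.33 to 0.072 for Barhl1 and -0.091 to 0.11 for Rfx1. The cause was not tested.

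A block on the column position gave 4618 and 878 called genes in hair and non-hair cells, 2306 with differing responses and 12023 between the control populations, and changed no call among the 8 factors. No label pairs these columns. Same-position correlations were 0.037 to 0.052 in hair cells, -0.232 to 0.683 in non-hair cells, 0.200 to 0.316 between control populations and -0.039 to 0.377 between treated ones. They were thus positive in every pair between the control populations and in hair cells, where they were small. Correlations between different positions were -0.078 to 0.044 in hair cells and -0.749 to 0.572 in non-hair cells. Between control populations they were -0.270 to -0.055, and between treated ones -0.338 to 0.198. Whether columns at the same position belong together was not tested.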
